A study of Mus musculus with 12 samples.

Results

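The genes described here are 9 enzymes and readers of DNA methylation, Dnmt1, Dnmt3a, Uhrf1, Tet1, Tet2, Tet3, Tdg, Mbd1 and Mbd2, chosen by name for their role from the 55401 genes of the deposited tables. All 9 were found once each and all 9 passed the filter on low counts, with 8 to 2823 counts per library. They were measured by poly(A) RNA sequencing of prefrontal cortex. The mice were C57BL/6J males, 14 weeks old, in which an adeno-associated virus (AAV) had been injected 4 weeks earlier on both sides of the dorsomedial prefrontal cortex. The 12 libraries fall into 3 groups of 4. Ttr-OE mice received a virus in which the CAG promoter drives green fluorescent protein (GFP) linked to the transthyretin gene Ttr. Ttr-KD mice received a virus with a short hairpin RNA against Ttr under the U6 promoter and GFP under CAG. Control mice (ctrl) received a virus with GFP alone under CAG. All groups thus carried AAV and GFP, and the control vector had another supplier than both Ttr vectors. The control vector is named without a hairpin. The share of cells infected is not given in the labels, so changes in few cells are diluted in the dissected tissue. The labels do not say that each library came from its own mouse, so p-values measure only how these libraries spread, and that spread may be partly technical.

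DNA methyltransferases place a methyl group on cytosine, mostly where a guanine follows, and take it from S-adenosylmethionine, whose methionine is regenerated by a vitamin B12-dependent enzyme. Dnmt1 copies methylation to the new strand after replication, guided by Uhrf1, and Dnmt3a writes new methylation, also outside CpG sites in neurons. Tet enzymes oxidise the methyl group, Tdg cuts the oxidised base out for repair, and Mbd proteins bind methylated DNA and bring in repressors. Neurons do not divide, so they depend on Tet oxidation and repair for active demethylation. DNA methylation itself was not measured in these data.

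Promoters of these genes are themselves mostly rich in CpG sites. RefSeq windows of 300 bases (GRCm38.p6), from 250 before to 50 after a start, were matched for 7 of the 9 genes, 12 windows in all. They held 2 to 57 CpG sites, against a median of 7 in all 32851 windows of that length. The highest count, 57, was in the window of Tet2, and the lowest, 2, in 1 of 3 windows of Dnmt1. Exact motifs were searched on both strands. The E2F motif TTTCGCGC was in 1 window each of Uhrf1 and Dnmt1 and in 0.323% of all windows. The cAMP response element TGACGTCA was in the single window of Tdg and in 1.79% of all windows. A GC box (GGGCGG) was in 9 of the 12 windows and 35.7% of all, the short element TGACGT, which the full element contains, in 2 and 7.51%, and the EGR1 motif GCGTGGGCG and the ETS motif CCGGAAGT in 0 of 12, against 0.612% and 3.89% of all. The shares of all windows are not matched for CpG content, which was higher in most of the 12 windows. The Dnmt3a windows that begin at 3806730 and 3806910 overlap and are counted separately. These letters are a description and show no binding. The 3 windows with an E2F motif or a cAMP response element are shown: those of Uhrf1 and Dnmt1 because Uhrf1 is set beside genes of dividing cells in the results, and that of Tdg because it alone of the 12 holds the full cAMP response element. Capitals mark the E2F and cAMP response element motifs. The Uhrf1 window is at chr17:56304063-56304362 (plus strand), with its E2F motif 185 bases before the RefSeq start of that window. The Dnmt1 window, 1 of 3, is at chr9:20952574-20952873 (minus strand), with its E2F motif 219 bases before the RefSeq start of that window. Both starts lie downstream of the first base of the annotated gene, which is 56303321 for Uhrf1 and 20959888 for Dnmt1. The Tdg window is at chr10:82629588-82629887 (plus strand), with its element 135 bases before the start.
Uhrf1: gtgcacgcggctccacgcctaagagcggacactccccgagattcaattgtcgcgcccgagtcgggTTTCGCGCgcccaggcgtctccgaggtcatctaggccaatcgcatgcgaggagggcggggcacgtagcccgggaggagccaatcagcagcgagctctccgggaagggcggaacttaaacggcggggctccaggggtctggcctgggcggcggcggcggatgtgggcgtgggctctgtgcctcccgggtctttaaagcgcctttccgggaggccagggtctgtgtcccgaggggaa
Dnmt1: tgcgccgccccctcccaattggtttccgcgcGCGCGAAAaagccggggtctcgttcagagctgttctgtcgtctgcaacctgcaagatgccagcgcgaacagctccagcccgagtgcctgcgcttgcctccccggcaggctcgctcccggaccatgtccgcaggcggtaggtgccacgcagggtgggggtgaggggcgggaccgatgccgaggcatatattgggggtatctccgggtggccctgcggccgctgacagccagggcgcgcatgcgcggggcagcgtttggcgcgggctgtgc
Tdg: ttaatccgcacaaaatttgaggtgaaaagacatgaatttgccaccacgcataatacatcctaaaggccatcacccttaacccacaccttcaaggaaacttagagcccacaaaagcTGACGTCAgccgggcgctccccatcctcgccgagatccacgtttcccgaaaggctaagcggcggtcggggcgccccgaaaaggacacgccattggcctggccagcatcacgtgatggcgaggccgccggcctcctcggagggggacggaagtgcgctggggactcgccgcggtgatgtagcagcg

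Library totals were 19879629 to 37166146 counts. Ttr had 2121 to 20940 counts with overexpression, 3 to 47 with knockdown and 14 to 200 in controls. The 200 counts were of ctrl replicate 2. Replicates 1, 3 and 4 of ctrl had 14, 18 and 18, inside the knockdown range. Its rise in Ttr-OE against ctrl passed the test (7.01 ± 0.81 on the log2 scale, SE, edgeR adjusted p = 0.0168), while Ttr-KD against ctrl gave -1.41 ± 1.16 (edgeR adjusted p = 0.936), so the counts do not check the knockdown label. A list of 11 neuron markers summed to 8515 to 10550 TPM (counts per gene length, scaled to the same total in every library) in Ttr-OE, 8372 to 9055 in Ttr-KD and 8566 to 9772 in ctrl, with no marker at 0. Markers of striatal projection neurons varied far more within each group, with sums of 166 to 948, 135 to 855 and 180 to 771 TPM in Ttr-OE, Ttr-KD and ctrl. Mural and meningeal markers summed to 87.7 to 169 TPM in Ttr-OE, above the 55.8 to 82.5 of Ttr-KD and 39.3 to 74.6 of ctrl. Ttr-KD replicate 4 stood apart for the genes described here and for several marker lists. It had the lowest TPM of the 12 libraries in 6 of the 9 genes, and the lowest CPM (counts scaled to one library size) in 4 of the 9. Its 100 most abundant genes held 31.9% of TPM, against 26.1 to 29.4% in the other 11 libraries. Its interferon-stimulated genes summed to 1184 TPM, the highest of the 12 libraries. Its striatal and oligodendrocyte markers summed to 135 and 1153 TPM, the lowest of the 12. Its immediate early genes, at 399 TPM, were the lowest of Ttr-KD.

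In deposited TPM, which divides by gene length, the readers were the most abundant and Uhrf1 the least. The rank of the readers depends on the lengths used. In CPM, not divided by length, ctrl means were 81.5 for Dnmt3a, 56.2 for Dnmt1, 46.6 for Tet3, 43.6 for Mbd1 and 36.5 for Mbd2. Uhrf1 was the lowest there too, at 0.810. Over the 12 libraries Mbd2 averaged 48.5 ± 3.63 TPM (SD), Mbd1 39.6 ± 2.45, Dnmt1 23.5 ± 2.24 and Dnmt3a 20.9 ± 1.62. Below them came Tet3 at 11.6 ± 1.24 TPM, Tet2 at 10.2 ± 1.10, Tdg at 3.61 ± 0.338, Tet1 at 1.85 ± 0.227 and Uhrf1 at 0.580 ± 0.225. This TPM order held within each of the 12 libraries for every pair of neighbours except Tet3 and Tet2, where Tet3 was higher in 11 of 12. A gene's length enters all libraries alike, so this agreement does not check the order between genes of unlike length. The closest pairs were Dnmt1 over Dnmt3a, with a ratio of 1.13 ± 0.0893 (SD) and a lowest value of 1.02, and Tet3 over Tet2, with 1.14 ± 0.142 and a lowest value of 0.905. Among the Tet enzymes Tet1 was the lowest in each library. The spread over all libraries, as the coefficient of variation of TPM, was 6.18% for Mbd1 to 12.2% for Tet1, and 38.8% for Uhrf1, which had only 8 to 40 counts per library.

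**Figure D1:**
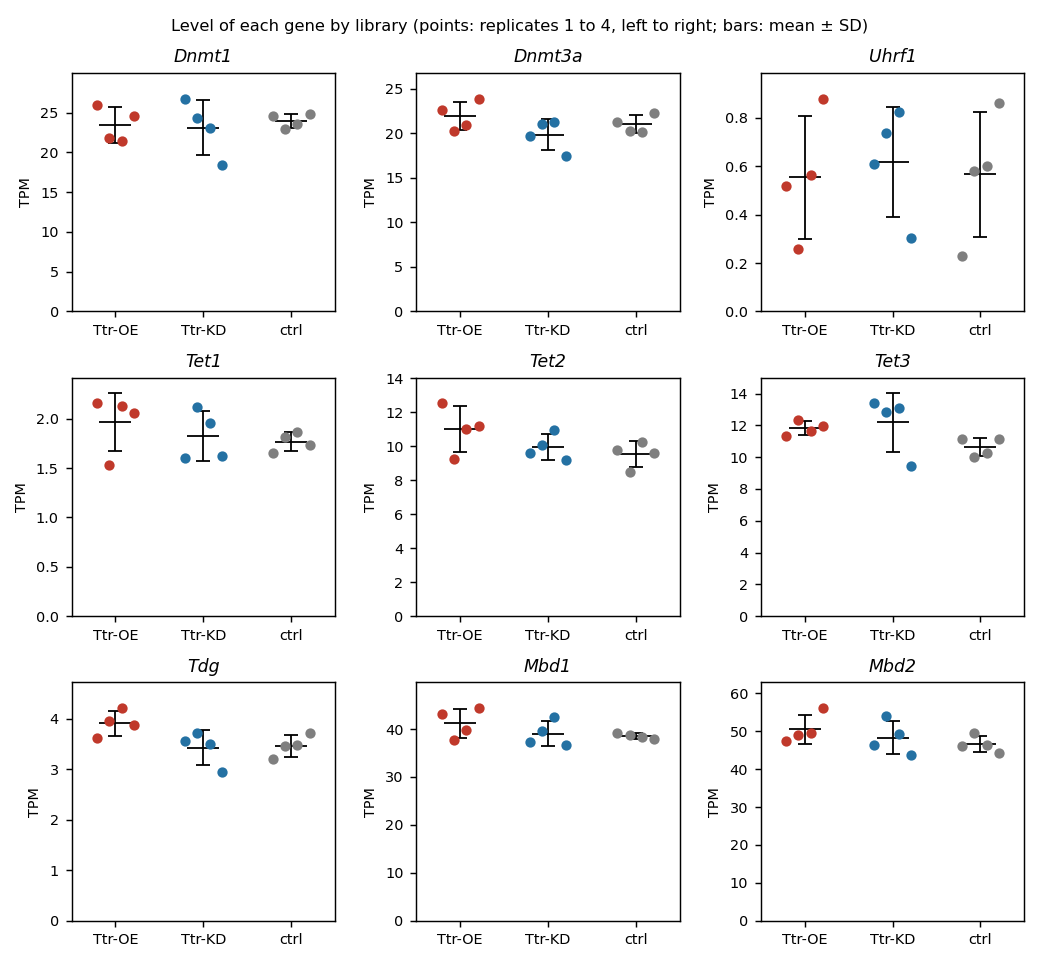
TPM of each gene (vertical axis, from 0) in the 4 libraries of Ttr-OE, Ttr-KD and ctrl (horizontal axis); points are replicates 1 to 4 from left to right, and bars show the mean and SD. The groups overlap in every panel except Ttr-OE against ctrl for Tet3, and Ttr-KD replicate 4 is the lowest point of its group for Dnmt1, Dnmt3a, Tet3, Tdg, Mbd1, Mbd2, Tet2 and Uhrf1.

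No difference in any of the 9 genes passed the test in any of the 3 comparisons. The edgeR quasi-likelihood test over 18289 genes called 0 of 9 in Ttr-OE against ctrl, in Ttr-KD against ctrl and in Ttr-OE against Ttr-KD, where it called 0.00547% of all genes in each, and DESeq2 and limma-voom called 0 of 9 too. At an unadjusted edgeR p below 0.05 there were 0 of 9 in Ttr-OE against ctrl, 1 of 9 (Tet3, higher) in Ttr-KD against ctrl and 0 of 9 in Ttr-OE against Ttr-KD, where the shares of all genes were 6.26%, 5.68% and 5.1%. The median log2 value of the 9 genes was 0.07, 0.04 and 0.03 in these comparisons, and that of all genes 0.0038, 0.0047 and 0.0002. Log2 values were above 0 for 7, 6 and 6 of the 9 genes, and for 51.4%, 51.8% and 50.1% of all genes. In CPM 0 of the 9 genes had groups that did not overlap, against 2.72%, 4.11% and 2.37% of all genes, and in TPM 1, 0 and 0 of 9 did, against 3.3%, 3.71% and 2.26%. On the log2(TPM + 0.1) scale the median of all genes was 0.051, 0.0072 and 0.045 in the 3 comparisons. TPM thus ran higher in Ttr-OE for genes in general, and TPM of single libraries below is to be read with that shift. Both comparisons with ctrl share its libraries and are not independent. For every gene but Uhrf1 the 95% interval of the difference was narrow. Over those 8 genes the intervals reached from -16.8% to 26.2% in Ttr-OE against ctrl, from -15.4% to 28.8% in Ttr-KD against ctrl and from -16.6% to 27.9% in Ttr-OE against Ttr-KD. A difference of 1.5-fold thus lay outside the interval of each of these 8 genes, while differences within the intervals remain possible. The intervals are not a limit of detection, since a call needs an adjusted p below 0.05 over 18289 genes. In dissected tissue, fewer cells of a type and less RNA per cell cannot be told apart.

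**Figure D2:**
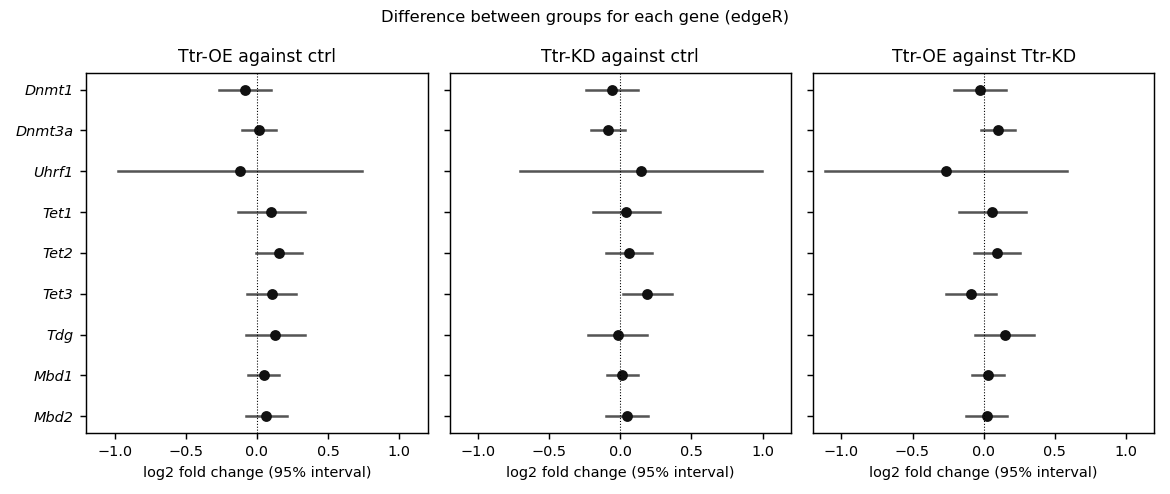
Log2 fold change (horizontal axis) of each gene (rows) in the 3 comparisons, from the edgeR fit; points are estimates and lines their 95% intervals. The intervals cross 0 everywhere except Tet3 in Ttr-KD against ctrl (0.19), and those of Uhrf1 are the widest.

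The maintenance methyltransferase Dnmt1 (ENSMUSG00000004099, chromosome 9, 20907209 to 20959888, minus strand, GRCm38) had 26.0, 21.8, 21.4 and 24.6 TPM in Ttr-OE replicates 1 to 4. It had 26.7, 24.3, 23.0 and 18.4 TPM in Ttr-KD and 24.6, 23.0, 23.6 and 24.8 TPM in ctrl. The groups overlapped, and the controls spanned the narrowest range, inside that of Ttr-KD. On the log2 scale the value was -0.08 ± 0.08 (SE) in Ttr-OE against ctrl (95% interval -16.8% to 7.0%), -0.06 ± 0.08 in Ttr-KD against ctrl (-15.4% to 8.90%) and -0.02 ± 0.08 in Ttr-OE against Ttr-KD (-13.3% to 11.5%), with edgeR adjusted p of 0.904, 0.972 and 0.993. The sign in Ttr-OE against ctrl turned when a library score of mural and meningeal markers was added as a covariate (0.09), and that score goes with the group.

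The de novo methyltransferase Dnmt3a (ENSMUSG00000020661, chromosome 12, 3806007 to 3914443, plus strand) had 22.6, 20.3, 20.9 and 23.9 TPM in Ttr-OE. It had 19.7, 21.03, 21.2 and 17.4 TPM in Ttr-KD and 21.3, 20.2, 20.1 and 22.3 TPM in ctrl. In TPM Ttr-OE replicates 1 and 4 lay above all controls and Ttr-KD replicates 1 and 4 below all of them. In CPM 1 Ttr-OE library lay above all controls and 2 Ttr-KD libraries below all of them. Its log2 value was 0.01 ± 0.06 in Ttr-OE against ctrl (95% interval -7.22% to 9.49%), -0.09 ± 0.06 in Ttr-KD against ctrl (-13.3% to 2.32%) and 0.10 ± 0.06 in Ttr-OE against Ttr-KD (-1.48% to 16.3%). Adjusted p by edgeR was 0.985, 0.912 and 0.974. The antisense gene Dnmt3aos had 0 counts in every library, and the copy Dnmt3a-ps1 had 0 to 1.

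Uhrf1 (ENSMUSG00000001228, chromosome 17, 56303321 to 56323486, plus strand), which recognises hemimethylated DNA behind the replication fork, varied more than any other of the 9 genes within every group. It had 0.518, 0.258, 0.564 and 0.878 TPM in Ttr-OE, 0.608, 0.735, 0.825 and 0.305 TPM in Ttr-KD and 0.230, 0.579, 0.599 and 0.858 TPM in ctrl. These rested on 23, 12, 22 and 27 counts in Ttr-OE, 18, 26, 40 and 9 in Ttr-KD and 8, 20, 31 and 28 in ctrl. Each group held 1 library far below the rest of it, and the ranges of the groups nearly coincided. In log2 units the value was -0.12 ± 0.40 in Ttr-OE against ctrl (95% interval -49.2% to 66.9%), 0.15 ± 0.39 in Ttr-KD against ctrl (-38.7% to 99.4%) and -0.26 ± 0.39 in Ttr-OE against Ttr-KD (-53.9% to 50.4%). In the same order edgeR gave an adjusted p of 0.975, 0.984 and 0.989, and at these counts a 1.5-fold difference lay inside each interval. Leaving out single libraries turned the sign in both comparisons with ctrl. The value in Ttr-OE against ctrl was -0.41 without Ttr-OE replicate 4, -0.37 without ctrl replicate 1 and 0.12 without Ttr-OE replicate 2 or ctrl replicate 4. In Ttr-KD against ctrl it was -0.11 without ctrl replicate 1, -0.029 without Ttr-KD replicate 3, 0.34 without Ttr-KD replicate 4 and 0.38 without ctrl replicate 4, with no call in any.

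Uhrf1 correlated between libraries with genes of dividing cells and, nearly as closely, with striatal markers. Its log2 CPM and a score of 12 proliferation genes (the mean of their centred log2 CPM) had a Pearson r of 0.883 (permutation p = 0.00036) and a Spearman rho of 0.790 (permutation p = 0.00349) over the 12 libraries. Among 117 relations of the 9 genes with 13 marker scores this was the only one to pass for r after Benjamini-Hochberg adjustment (permutation adjusted p = 0.0421), and for rho it did not (permutation adjusted p = 0.240). After subtraction of the group means r was 0.885, and without the 2 libraries with the most extreme proliferation scores it was 0.672. The striatal score had the next closest relation, with r = 0.830 (permutation p = 0.00094), rho = 0.776 (permutation p = 0.0041) and adjusted permutation p of 0.0550 and 0.240. For that score r was 0.856 after subtraction of the group means and 0.782 without its 2 most extreme libraries. Both relations lean on Ttr-OE replicate 2, Ttr-KD replicate 4 and ctrl replicate 1, the libraries lowest in Uhrf1. Over the other 9 libraries r was 0.471 for proliferation and 0.621 for the striatal score, a choice made after the values were seen. With the striatal score as a covariate the log2 value of Uhrf1 was -0.24 ± 0.26 in Ttr-OE against ctrl, 0.09 ± 0.26 in Ttr-KD against ctrl and -0.33 ± 0.26 in Ttr-OE against Ttr-KD, with smaller errors than without it and no call. Dnmt1, which also has a window with the E2F motif, had r = 0.361 with the proliferation score (permutation p = 0.249, permutation adjusted p = 0.595). Its rho was 0.357 (permutation p = 0.255). The part of dissection in the level of Uhrf1 was not tested.

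**Figure D3:**
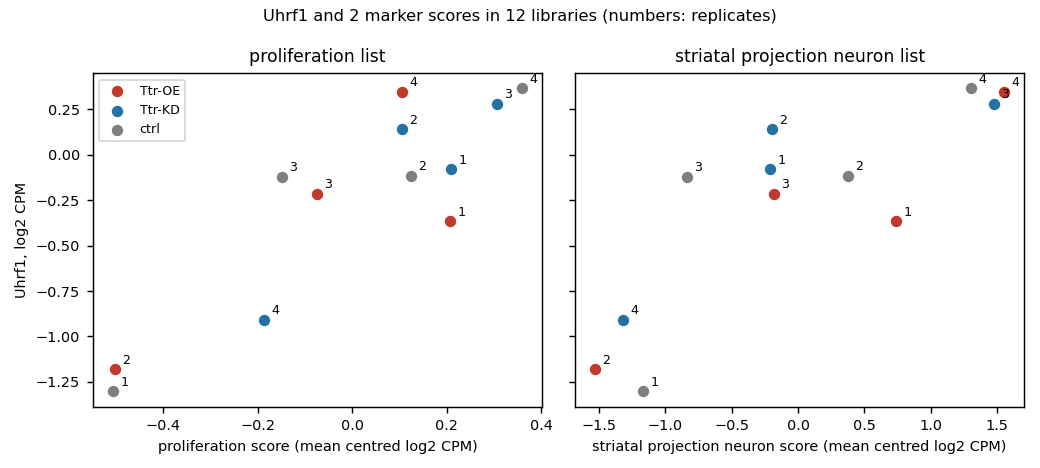
Uhrf1 in log2 CPM (vertical axis) against the proliferation score (left) and the striatal projection neuron score (right) of each of the 12 libraries; colours give the group and numbers the replicate. The 3 libraries lowest in Uhrf1, one of each group, are also the lowest in both scores.

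Tet1 (ENSMUSG00000047146, chromosome 10, 62804570 to 62908996, minus strand), a Tet enzyme with its own DNA-binding CXXC domain, had 2.16, 1.53, 2.13 and 2.06 TPM in Ttr-OE. It had 1.60, 2.12, 1.95 and 1.62 TPM in Ttr-KD and 1.65, 1.81, 1.87 and 1.74 TPM in ctrl. Of the Ttr-OE libraries 3 lay above all controls and replicate 2 below all of them. The log2 value was 0.10 ± 0.11 in Ttr-OE against ctrl (95% interval -8.85% to 26.2%), 0.04 ± 0.11 in Ttr-KD against ctrl (-12.6% to 21.3%) and 0.06 ± 0.11 in Ttr-OE against Ttr-KD (-11.5% to 22.7%). The edgeR adjusted p was 0.913, 0.984 and 0.990. Without Ttr-OE replicate 2 the value in Ttr-OE against ctrl was 0.19 (edgeR adjusted p = 0.430, and 0.430 to 1.00 over all alternatives). With the mural and meningeal score as a covariate its sign turned, to -0.061 in Ttr-OE against ctrl, -0.013 in Ttr-KD against ctrl and -0.049 in Ttr-OE against Ttr-KD.

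Tet2 (ENSMUSG00000040943, chromosome 3, 133463679 to 133545139, minus strand), which lacks a CXXC domain of its own, had 12.5, 9.25, 11.0 and 11.2 TPM in Ttr-OE. It had 9.61, 10.1, 11.0 and 9.19 TPM in Ttr-KD and 9.78, 8.49, 10.3 and 9.62 TPM in ctrl. Here too 3 of 4 Ttr-OE libraries lay above all controls and replicate 2 did not. On the log2 scale the value was 0.15 ± 0.07 in Ttr-OE against ctrl (95% interval -0.576% to 24.3%), 0.06 ± 0.07 in Ttr-KD against ctrl (-6.89% to 16.5%) and 0.09 ± 0.07 in Ttr-OE against Ttr-KD (-4.54% to 19.3%). Adjusted p by edgeR was 0.816, 0.965 and 0.980. Without Ttr-OE replicate 2 the value in Ttr-OE against ctrl was 0.22 (edgeR adjusted p = 0.234). With the mural and meningeal score as a covariate it was 0.02 ± 0.12. Summed markers of that list were 87.7 to 169 TPM in Ttr-OE and 39.3 to 74.6 TPM in ctrl, so the score and the group cannot be told apart.

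Tet3 (ENSMUSG00000034832, chromosome 6, 83362373 to 83459084, minus strand), the most abundant Tet enzyme here, had 11.3, 12.3, 11.6 and 12.0 TPM in Ttr-OE. It had 13.4, 12.8, 13.1 and 9.44 TPM in Ttr-KD and 11.1, 10.0, 10.3 and 11.1 TPM in ctrl. All 4 Ttr-OE libraries lay above all controls in TPM, as did 3.02% of all genes, and 3 of 4 did in CPM. In Ttr-KD replicates 1 to 3 lay above all controls and replicate 4 below all of them. Its log2 value was 0.10 ± 0.08 in Ttr-OE against ctrl (95% interval -4.82% to 21.2%), 0.19 ± 0.08 in Ttr-KD against ctrl (1.07% to 28.8%) and -0.09 ± 0.08 in Ttr-OE against Ttr-KD (-16.6% to 6.24%). In the same order edgeR gave an adjusted p of 0.864, 0.847 and 0.986. Without Ttr-KD replicate 4 the value in Ttr-KD against ctrl was 0.27 ± 0.06, still with no call (edgeR adjusted p = 0.300, and 0.300 to 0.999 over all alternatives). Immediate early genes, which neurons switch on with activity, had summed levels of 399 to 783 TPM in Ttr-KD and 285 to 350 TPM in ctrl. Interferon-stimulated genes, 7 in the list, had summed levels of 80.2 to 1184 TPM in Ttr-KD and 21.7 to 56.4 TPM in ctrl, with no marker at 0. Across the 12 libraries Tet3 had r = 0.643 with the immediate early score (permutation p = 0.0271, permutation adjusted p = 0.288). With the interferon-stimulated score r was 0.026. Within Ttr-KD these were 0.936 and -0.929, within Ttr-OE -0.493 and -0.179, and within ctrl -0.319 and 0.211, over 4 libraries each. The 399 and the 1184 TPM were both of Ttr-KD replicate 4. Such values within Ttr-KD were not particular to these lists. There Tet3 had r = -0.944 with the microglia score, -0.916 with endothelium, -0.916 with astrocyte, 0.912 with proliferation and 0.893 with oligodendrocyte. With the mural and meningeal score it was -0.280 and with choroid plexus -0.072. Beyond these correlations, the part of either list in the level of Tet3 was not tested.

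The glycosylase Tdg (ENSMUSG00000034674, chromosome 10, 82629828 to 82650799, plus strand) had 3.62, 3.95, 4.22 and 3.89 TPM in Ttr-OE. It had 3.56, 3.73, 3.50 and 2.94 TPM in Ttr-KD and 3.21, 3.46, 3.48 and 3.73 TPM in ctrl. Ttr-OE replicates 2 to 4 lay above all 8 other libraries and replicate 1 within them. In log2 units the value was 0.13 ± 0.10 in Ttr-OE against ctrl (95% interval -5.27% to 26.1%), -0.02 ± 0.10 in Ttr-KD against ctrl (-14.6% to 14.0%) and 0.15 ± 0.10 in Ttr-OE against Ttr-KD (-4.05% to 27.9%). The edgeR adjusted p was 0.860, 0.992 and 0.974. Tdg had 85 to 180 counts per library. Glt8d2, with 337 to 1022 counts, overlaps its exons by 367 bases on the other strand, and the strand setting of the counting is not given in the sources used here, so the counts of Tdg are uncertain. The copy Tdg-ps had 0 to 3 counts.

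The readers Mbd1 and Mbd2 had the lowest coefficients of variation of TPM, 6.18% and 7.49%, with Dnmt3a next at 7.73%, while in the edgeR fit the SE of Dnmt3a was below that of Mbd2. Mbd1 (ENSMUSG00000024561, chromosome 18, 74267605 to 74282732, plus strand), a repressor that binds methylated CpG, had 43.1, 37.7, 39.8 and 44.4 TPM in Ttr-OE. It had 37.3, 39.6, 42.5 and 36.8 TPM in Ttr-KD and 39.2, 38.8, 38.2 and 37.9 TPM in ctrl. The controls lay within 1.29 TPM of each other and both vector groups reached past them on either side. In CPM 2 Ttr-OE libraries lay above all controls and 0 below all of them. The log2 value was 0.05 ± 0.05 in Ttr-OE against ctrl (95% interval -4.41% to 11.5%), 0.01 ± 0.05 in Ttr-KD against ctrl (-6.49% to 9.14%) and 0.03 ± 0.05 in Ttr-OE against Ttr-KD (-5.39% to 10.4%). Adjusted p by edgeR was 0.915, 0.987 and 0.989.

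Mbd2 (ENSMUSG00000024513, chromosome 18, 70568189 to 70626131, plus strand), which recruits the deacetylase complex NuRD to methylated DNA, had 47.6, 49.1, 49.6 and 56.2 TPM in Ttr-OE. It had 46.3, 54.0, 49.2 and 43.8 TPM in Ttr-KD and 46.2, 49.5, 46.4 and 44.4 TPM in ctrl. In TPM Ttr-OE replicate 4 was the highest of the 12 libraries and Ttr-KD replicate 4 the lowest, and the groups overlapped. In CPM ctrl replicate 4 was the lowest. On the log2 scale the value was 0.07 ± 0.07 in Ttr-OE against ctrl (95% interval -5.29% to 15.7%), 0.05 ± 0.07 in Ttr-KD against ctrl (-6.62% to 14.2%) and 0.02 ± 0.07 in Ttr-OE against Ttr-KD (-8.29% to 12.1%). In the same order edgeR gave an adjusted p of 0.905, 0.973 and 0.993.

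Pairs of the 9 genes were compared across libraries. Of their 36 pairs 27 had a positive Pearson r over the 12 libraries, from -0.173 to 0.617, and 0 passed after adjustment over the 36 pairs (smallest permutation adjusted p = 0.639). The closest pair was Tet1 with Tet2, with r = 0.617 (permutation p = 0.031) and rho = 0.713 (permutation p = 0.0119), and r = 0.546 without the 2 libraries most extreme in Tet1. Dnmt1 with its guide Uhrf1 had r = 0.292 (permutation p = 0.360) and rho = 0.168 (permutation p = 0.604). The gene with the highest r among all genes of at least 5 CPM was Kat7 for Dnmt1 (0.913), Ctu2 for Dnmt3a (0.926), Ybx1-ps2 for Uhrf1 (0.935), Stag2 for Tet1 (0.917) and Donson for Tet2 (0.932). For Tet3 it was Arih2 (0.874), for Tdg Axin2 (0.819), for Mbd1 Cachd1 (0.889) and for Mbd2 Gdf11 (0.908). Each is the highest of about 12380 values over 12 libraries that share depth and dissection, and is given as a description.

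No partner gene of the pathway passed the test either. Of 59 other genes of DNA methylation, its readers and its removal, 54 passed the filter on low counts, and edgeR, DESeq2 and limma-voom called 0 in all 3 comparisons, where edgeR called 0.00547% of all genes. At an unadjusted edgeR p below 0.05 there were 2 in Ttr-OE against ctrl (1 higher, 1 lower), 2 in Ttr-KD against ctrl (1 higher, 1 lower) and 3 in Ttr-OE against Ttr-KD (1 higher, 2 lower). The shares of all genes were 6.26%, 5.68% and 5.1%. Their median log2 values were 0.0052, 0.0080 and -0.0074, and their median size was 0.05 on the log2 scale in each, against 0.08, 0.08 and 0.07 for all genes. These medians of size are not matched for abundance, so they do not show that the partner genes are more stable.

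**Figure D4:**
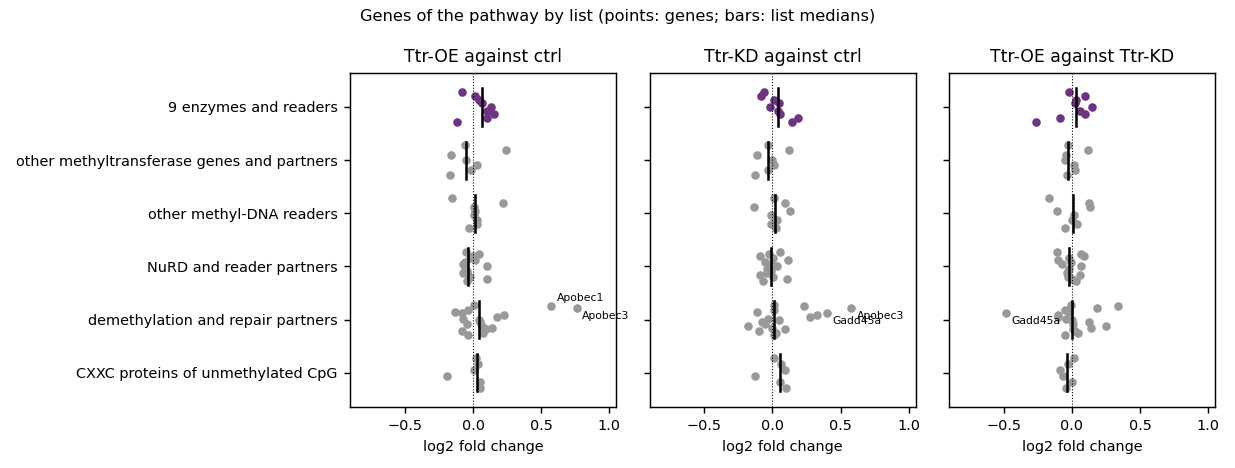
Log2 fold change (horizontal axis) of the 9 genes and of 54 partner genes grouped by list (rows) in the 3 comparisons; points are genes and bars the median of each list. Most points lie near 0, and the points farthest out are Apobec1, Apobec3 and Gadd45a.

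The 4 partner genes with the smallest p-values in each comparison are given as values. In Ttr-OE against ctrl they were Apobec3 and Apobec1, cytidine deaminases, with 4.77 ± 2.04 against 2.79 ± 0.337 CPM and 2.84 ± 0.911 against 1.87 ± 0.546 CPM, the reader and glycosylase Mbd4, with 9.14 ± 0.666 against 7.83 ± 0.740 CPM, and the demethylase of histones Kdm2b, with 14.6 ± 1.43 against 16.7 ± 1.04 CPM (SD, n = 4 each; edgeR adjusted p = 0.767, 0.806, 0.805 and 0.792). Lymphocyte markers summed to 14.1 to 374 TPM in Ttr-OE and 3.26 to 13.9 TPM in ctrl, with 0 of the 8 markers at 0 in any Ttr-OE library and up to 2 in a ctrl library. Microglia markers summed to 247 to 602 TPM in Ttr-OE and 275 to 304 TPM in ctrl, and interferon-stimulated genes to 29.9 to 162 TPM in Ttr-OE and 21.7 to 56.4 TPM in ctrl. Apobec3 also had a positive log2 value in Ttr-KD against ctrl, 0.58 ± 0.31, with 4.17 ± 1.51 against 2.79 ± 0.337 CPM (edgeR adjusted p = 0.897). In that comparison the 4 libraries of Ttr-KD lay above those of ctrl in all 7 interferon-stimulated genes. Of all genes, 4.11% had groups that did not overlap there, in either direction. The part of these lists in the Apobec values was not tested. In Ttr-KD against ctrl they were Mbd5, an MBD-domain protein, with 67.1 ± 3.55 against 73.5 ± 4.00 CPM, and Gadd45a and Gadd45b, stress- and activity-induced genes tied to demethylation, with 7.86 ± 1.94 against 5.97 ± 1.08 CPM and 12.2 ± 1.21 against 9.64 ± 1.87 CPM. The histone chaperone Rbbp4 had 120 ± 2.68 against 128 ± 3.68 CPM, and the edgeR adjusted p of these 4 genes was 0.843, 0.878, 0.879 and 0.897. The part of the immediate early genes, whose sums in Ttr-KD lay above those in ctrl as given for Tet3, was not tested. In Ttr-OE against Ttr-KD the 4 genes were Gadd45a, with 5.63 ± 0.719 against 7.86 ± 1.94 CPM, Mbd5, with 73.7 ± 2.82 against 67.1 ± 3.55 CPM, Mbd3, a NuRD subunit, with 88.7 ± 3.61 against 99.6 ± 9.41 CPM, and the DNA ligase Lig3, with 25.7 ± 1.55 against 23.5 ± 1.44 CPM. Their edgeR adjusted p was 0.967, 0.967, 0.967 and 0.974. Mbd5 was higher in each Ttr-OE library than in each Ttr-KD library, as were 1.23% of all genes. In Ttr-OE against ctrl, 1 of the 54 partner genes lay wholly higher in CPM and 1 wholly lower. In Ttr-KD against ctrl 0 did. The shares of all genes with groups that did not overlap were 2.72% and 4.11%.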

How the data were processed

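Gene counts of 12 prefrontal cortex libraries were analysed. The authors deposited counts per Ensembl gene, whole numbers that were not normalized, and TPM values, which sum to the same total in every library. The third deposited table, of variance-stabilised values, was not used here. The submitters' processing notes name bcl2fastq 2.20.0.422, UMI-tools, featureCounts, DESeq2 and GRCm38 (mm10), but not what each was used for. For the aligner, the strand setting and any removal of duplicates, nothing is given in these sources. Per the labels' protocols, 500 ng of RNA entered a directional kit after poly(A) selection.

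Of 55401 identifiers, 55141 were matched to symbols (GENCODE). The main test on counts was edgeR's (4.0.16, under R 4.3.3) quasi-likelihood F test, with TMM factors, the default filter by group (18289 genes) and all 12 libraries in 1 fit of 3 group means. P-values were adjusted by Benjamini-Hochberg over all genes tested, with a threshold of 0.05. SE is the log2 value divided by the square root of its F statistic, and intervals of 95% use t quantiles with the total (residual plus prior) degrees of freedom of the fit. TPM levels are the deposited values and CPM was computed with the TMM factors. Log2 CPM used a prior count of 2, and a marker score is the mean of a list's log2 CPM after centring each gene. Permutation tests were two-sided with 100000 resamples. Alternatives used DESeq2 1.42.0, limma 3.58.1, other filters and scalings, covariates, the replicate number as a block, log2(TPM + 0.1) and log2(TPM + 1), and each library left out. The steps were tested on simulated counts.

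The 9 genes, the lists and the tests were chosen with earlier results of these data known. Text names the 9 genes, the 4 partner genes with the smallest p-values in each comparison and the gene most like each of the 9. Of 18 pairs of libraries in a group, none agreed within sampling noise (chi-square per degree of freedom 5.00 to 26.1). Figures used Python 3.11.15 and matplotlib 3.10.9.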

Additional observations from a re-analysis of the deposited data

How the results depend on the processing

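In every alternative run 0 of the 9 genes and 0 of the 54 partner genes were called. The count of all genes called, 1 in each comparison, did move, and the cause was not tested. In Ttr-OE against ctrl it was 20 with no filter on low counts, 38 with DESeq2, 0 with limma-voom, 0 with only the groups compared in the fit, 0 with the mural and meningeal covariate and 0 to 4 with 1 library left out (4 without Ttr-OE replicate 2). In Ttr-KD against ctrl it was 22 with no filter, 43 with DESeq2, 2 with only the groups compared, 0 with the mural and meningeal covariate, 4 with the striatal covariate, 0 with limma on log2(TPM + 0.1) or log2(TPM + 1) and 0 to 10 with 1 library left out (10 without Ttr-KD replicate 4). In Ttr-OE against Ttr-KD it was 11 with DESeq2, 0 with limma-voom, 0 with the mural and meningeal covariate and 0 to 2 with 1 library left out (2 without Ttr-OE replicate 2 or Ttr-KD replicate 4).

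Of 162 log2 values of the 9 genes per comparison, 8, 8 and 9 changed sign in Ttr-OE against ctrl, Ttr-KD against ctrl and Ttr-OE against Ttr-KD, none of them called. With the mural and meningeal covariate Dnmt1 was at 0.092 and Tet1 at -0.061 in Ttr-OE against ctrl, Tet1 at -0.013 in Ttr-KD against ctrl, and Dnmt1 at 0.094 and Tet1 at -0.049 in Ttr-OE against Ttr-KD. With the striatal covariate Dnmt3a was at -0.00019 in Ttr-OE against ctrl, and on the log2(TPM + 0.1) and log2(TPM + 1) scales Dnmt1 was at 0.029 and 0.027 in Ttr-OE against Ttr-KD. With 1 library left out, values in Ttr-OE against ctrl were -0.036 to 0.035 for Dnmt3a and -0.41 to 0.12 for Uhrf1. In Ttr-KD against ctrl they were -0.14 to 0.013 for Dnmt1, -0.11 to 0.38 for Uhrf1, -0.027 to 0.095 for Tet1, -0.019 to 0.033 for Mbd1 and -0.053 to 0.023 for Tdg. In Ttr-OE against Ttr-KD they were -0.098 to 0.054 for Dnmt1, -0.0028 to 0.060 for Mbd1 and -0.030 to 0.065 for Mbd2.

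Replicate numbers did not pair the libraries: the correlation of deviations from the group means was -0.341 to 0.160 over 12 same-numbered pairs, and 1 of 12 libraries correlated best with its own number. With the replicate number as a block, 0 genes were called in Ttr-KD against ctrl and 2 in Ttr-OE against Ttr-KD, and Tet3 in Ttr-KD against ctrl stayed at 0.19 (edgeR adjusted p = 0.902). Depth limits Uhrf1 most, with 8 to 40 counts per library.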
